A study of Mus musculus with 6 samples.

Results

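Zfyve28, Rab3il1, Fam117a, Slc7a15, Ap1b1, Cnr2, Zfp395, Edaradd and Nol4l are 9 genes that were picked for very low counts in lipopolysaccharide-treated mouse macrophages and for higher counts when a preparation labelled HACA was added. They were chosen from the same 6 libraries described here, so their differences between the groups are given as a description, with no test. All 9 were found by symbol, and all 9 passed the filter on low counts that left 17113 of 55263 genes for testing. Bone marrow-derived macrophages, which are cells grown from marrow progenitors, were sequenced in 3 groups of 2 libraries: lipopolysaccharide (LPS) with HACA, LPS alone, and a control labelled only as wild type. LPS is the bacterial membrane component sensed by the receptor TLR4. The labels do not spell out HACA, give no dose, time, age or strain, and give the treatment in place of a genotype for the 2 LPS groups. The series title concerns a self-assembled hyaluronic acid nanomedicine in a mouse model of psoriasis. Whether the replicates are separate cultures or animals is not labelled, so what the spread between 2 libraries measures is not known. Same-numbered libraries of the groups shared part of their differences, as given below.

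Macrophages that sense LPS switch on cytokine and interferon programmes and at the same time shut down many genes of the resting state. The 9 genes form no single pathway. Cnr2 and Slc7a15 encode a receptor and a transporter of the cell surface, Zfyve28, Rab3il1 and Ap1b1 encode proteins of endosomes and vesicle traffic, Edaradd encodes a signalling adaptor and Zfp395 a zinc finger protein, while the roles of Fam117a and Nol4l are not described here.

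The libraries held 13933604 and 13007575 counts with LPS+HACA, 12529874 and 15379496 with LPS, and 13806911 and 13036776 in control. Genes with 10 counts or more numbered 16642 and 15973 with LPS+HACA, 14006 and 13883 with LPS, and 16507 and 16241 in control (replicates 1 and 2). The LPS label was checked on Tnf, a cytokine gene induced by LPS, which averaged 78.3 CPM with LPS+HACA, 1522 CPM with LPS and 9.88 CPM in control (CPM, TMM-scaled library-relative counts). Ptgs2, the inducible cyclooxygenase gene, averaged 56.8, 7305 and 2.39 CPM in the same order of groups. The 17 macrophage markers summed to between 33986 and 58367 CPM in every library, a sum carried by the lysozyme gene Lyz2. Of the 16 tested, 2 were called higher and 4 lower in LPS vs control, and 1 higher and 2 lower in LPS+HACA vs LPS. Cd79b, Pax5 and Vpreb1, markers of B cells, were at 0 counts in every library, as were Cd3e, Cd8a, Gzma and Ncr1 of T and NK cells and Fcer1a, Mcpt4 and Tpsb2 of mast cells. Other markers of these lists were counted. The T and NK cell sum was 6.32 and 34.0 CPM with LPS+HACA, 6.11 and 34.4 with LPS, and 15.2 and 42.1 in control, with 0 of 1 tested gene called. Most of it was Cd4, with 94 and 493, 51 and 351, and 236 and 626 counts in that order of groups. The mast cell sum, nearly all Hdc, was 2.31 and 1.22, 18.6 and 17.3, and 0.439 and 1.06 CPM in that order of groups. Hdc was called higher in LPS vs control (4.83, adjusted p = 0.00110) and lower in LPS+HACA vs LPS (−3.51, adjusted p = 0.00871). The dendritic cell sum was 12.0 and 14.2, 39.6 and 48.6, and 9.10 and 10.5 CPM, with 2 of 5 tested genes called higher in LPS vs control and 2 lower in LPS+HACA vs LPS. The neutrophil sum was 202 and 92.0, 246 and 116, and 257 and 117 CPM, with 0 of 6 called. Its excess in replicate 1 came from Mmp8, with 3245 and 803, 2357 and 530, and 3970 and 1157 counts. Ngp went the other way, with 62 and 430, 93 and 504, and 92 and 470 counts. Camp, Ltf, Retnlg and S100a8 were likewise higher in replicate 2 of each group. The part of these genes in the results was not tested. Replicate 1 of each group had higher sums than replicate 2 for 20 cell cycle genes (1881 and 423 CPM with LPS+HACA, 2398 and 1105 with LPS, 990 and 247 in control) and for 7 stromal markers (49.7 and 1.35, 32.4 and 2.6, and 47.2 and 1.72 CPM in that order of groups). Mki67 was the largest part of the cell cycle sum, with 16090 and 4637, 14442 and 10261, and 7917 and 1931 counts. Top2a differed more, with 4821 and 210, 3653 and 148, and 2014 and 159 counts. Tk1 had 565 and 422, 123 and 163, and 381 and 413 counts, so it was not higher in replicate 1 of every group.

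Counts were deposited per annotated transcript, and reads that fell on bases shared by several transcripts appeared to be mostly missing from them. This was inferred from the values, because the counting tool is not given. Transcripts with at least 100 such unshared bases held 99.2% of all counts, and transcripts with none held 0.0672%. On that reading, each gene was seen mainly through the exonic bases that belong to 1 annotated transcript, called countable bases here. Edaradd has a single transcript and was countable over 100% of its 6668 exonic bases. The countable share was 76.9% for Zfp395, 76.3% for Zfyve28, 69.2% for Fam117a, 59.8% for Rab3il1, 50.9% for Slc7a15, 33.5% for Nol4l, 20.5% for Ap1b1 and 8.56% for Cnr2. For Cnr2 this leaves 341 bases, all in the exons before the shared coding exon, and for Ap1b1 1015 bases, of which 851 lie in introns of the coding transcripts. A change in isoform use cannot be told apart from a change in expression where most of a gene is not countable.

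**Figure D1:**
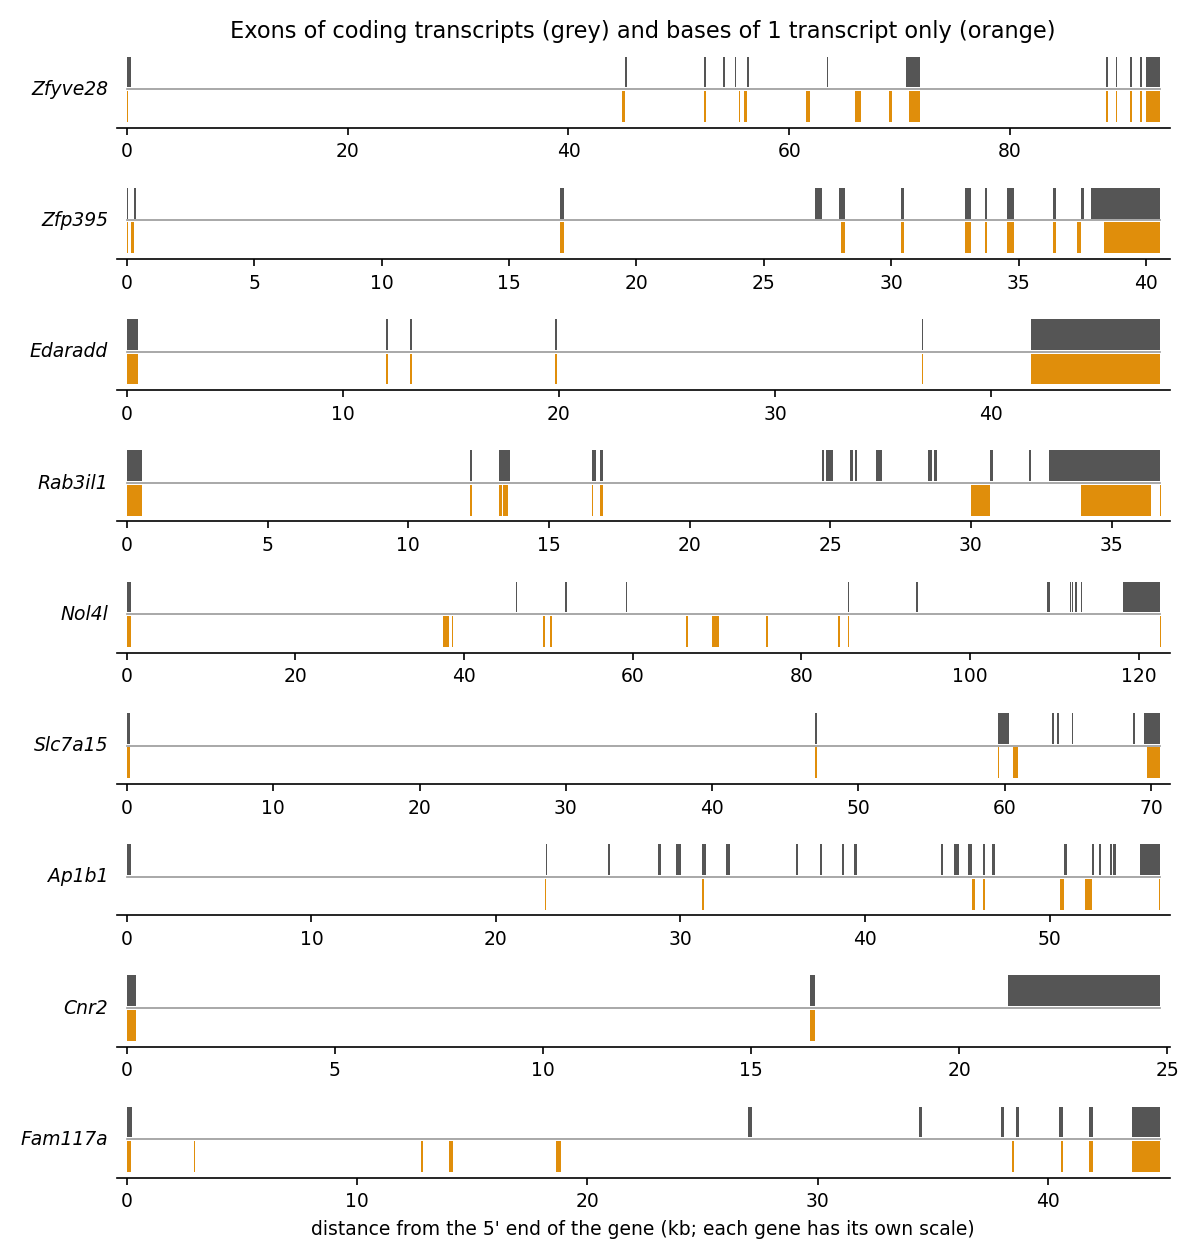
Map of the 9 genes in the direction of transcription, with distance from the 5′ end in kilobases on the x axis, exons of coding transcripts in grey above the line and bases of 1 transcript only in orange below it. Edaradd is countable over 100% of its exonic bases, while Cnr2 is countable over 8.56%, near its transcript starts, and Ap1b1 over 20.5%.

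All 9 genes had both LPS libraries below both control libraries, a pattern met by 35.3% of all genes tested, and both LPS+HACA libraries above both LPS libraries, met by 30.3%. All 9 also had both LPS+HACA libraries below both control libraries, met by 23.1%. These patterns follow in part from the choice of the genes, and nothing is read from their counts. Relative to control, the level was between 20.2% and 63.5% with LPS+HACA (median 34.6%) and between 1.12% and 7.01% with LPS (median 1.75%). LPS+HACA libraries held 9.06 to 31.5 times the LPS level (median 18.1). Of the 9 genes, 5 kept more than 3 counts in the 2 LPS libraries together and 4 had 2 counts. "Silenced" was thus not shown as complete absence for any of them, and 2 counts are too few to tell a low level from absence. In RNA from bulk cultures, fewer cells that express a gene and less RNA per cell cannot be told apart.

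**Figure D2:**
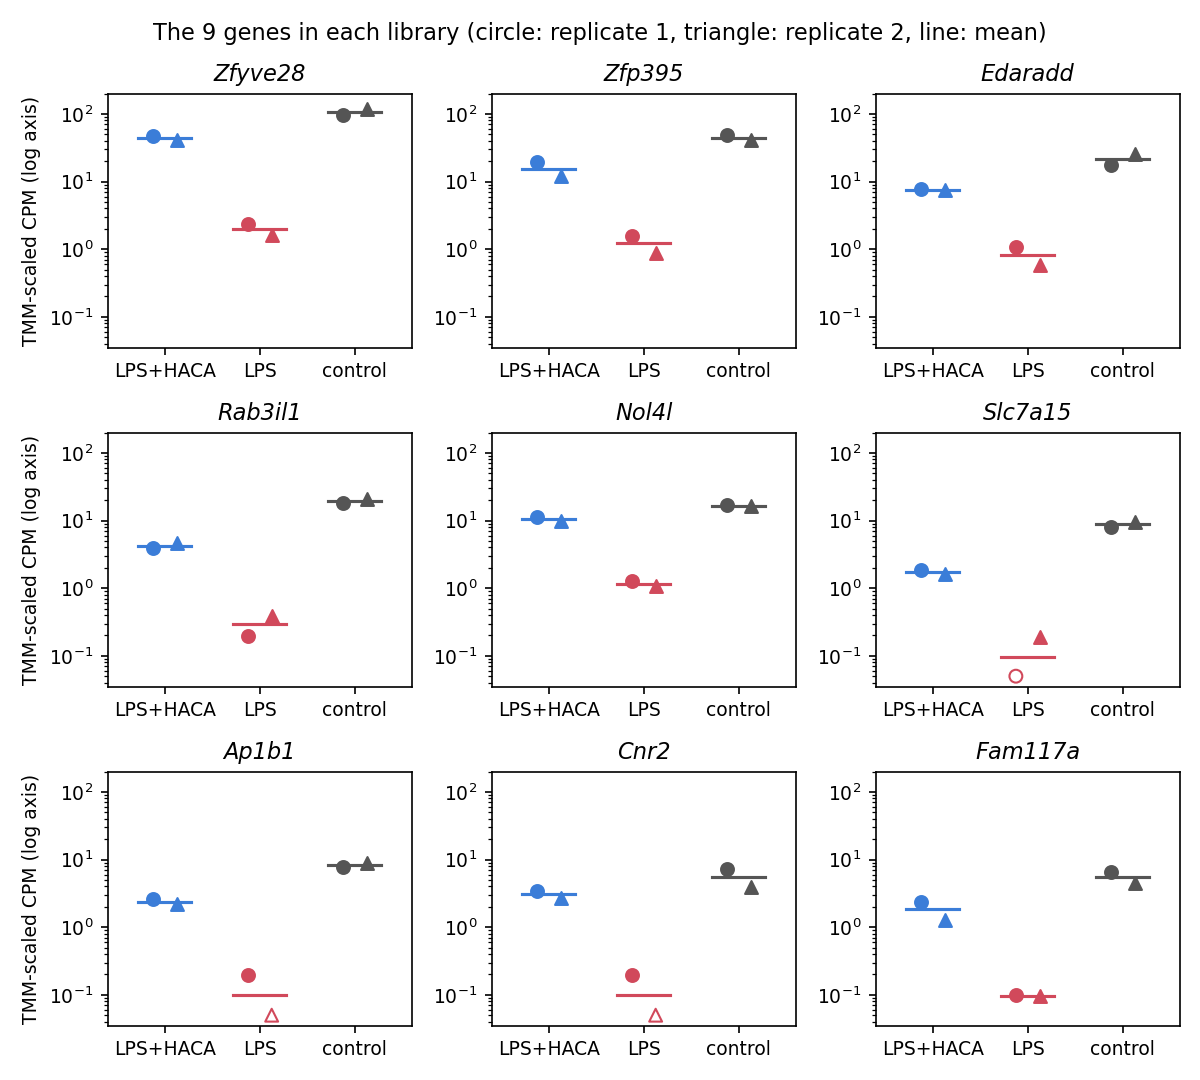
TMM-scaled CPM on a log axis for each of the 9 genes in the LPS+HACA, LPS and control libraries, with replicate 1 as a circle, replicate 2 as a triangle, the mean as a line, and open symbols for libraries with 0 counts. In every panel the LPS+HACA libraries lie above the LPS libraries and below the control libraries, from Zfyve28 with means of 43.6, 2.0 and 106 CPM to Fam117a, lowest in control, with means of 1.83, 0.0974 and 5.54 CPM.

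The promoters annotated for the genes are shown because the genes were low together in LPS and each start site can be compared with the others. RefSeq (GRCm38.p6) lists a promoter window of 250 bases before to 50 bases after the start for 8 of the 9 genes, and Zfp395 is named only. The windows below are those nearest to the start of the counted coding transcript for Zfyve28, Rab3il1 and Slc7a15, and both annotated windows of Cnr2. Each is printed 5′ to 3′ on the strand of the gene, with matches to the searched motifs in capitals.
Zfyve28, chr5:34288275-34288574, minus strand: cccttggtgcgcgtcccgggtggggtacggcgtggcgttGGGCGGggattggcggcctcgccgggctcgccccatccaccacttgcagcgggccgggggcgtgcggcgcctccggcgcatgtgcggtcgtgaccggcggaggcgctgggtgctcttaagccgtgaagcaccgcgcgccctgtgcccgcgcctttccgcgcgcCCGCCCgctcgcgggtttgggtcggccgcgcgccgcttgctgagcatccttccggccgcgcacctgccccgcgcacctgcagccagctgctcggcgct
Rab3il1, chr19:10018001-10018300, plus strand: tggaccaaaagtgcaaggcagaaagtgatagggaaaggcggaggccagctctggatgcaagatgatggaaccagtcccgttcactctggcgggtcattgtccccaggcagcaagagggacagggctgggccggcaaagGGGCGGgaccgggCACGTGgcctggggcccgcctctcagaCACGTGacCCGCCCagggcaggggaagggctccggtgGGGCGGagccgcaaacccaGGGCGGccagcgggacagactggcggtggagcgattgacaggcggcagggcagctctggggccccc
Slc7a15, chr12:8599017-8599316, minus strand: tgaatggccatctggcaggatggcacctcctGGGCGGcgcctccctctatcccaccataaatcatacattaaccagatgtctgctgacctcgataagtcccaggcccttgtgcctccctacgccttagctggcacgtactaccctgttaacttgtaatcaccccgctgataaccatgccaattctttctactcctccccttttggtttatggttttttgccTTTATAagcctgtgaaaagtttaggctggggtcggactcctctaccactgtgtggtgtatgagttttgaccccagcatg
Cnr2 distal, chr4:135894939-135895238, plus strand: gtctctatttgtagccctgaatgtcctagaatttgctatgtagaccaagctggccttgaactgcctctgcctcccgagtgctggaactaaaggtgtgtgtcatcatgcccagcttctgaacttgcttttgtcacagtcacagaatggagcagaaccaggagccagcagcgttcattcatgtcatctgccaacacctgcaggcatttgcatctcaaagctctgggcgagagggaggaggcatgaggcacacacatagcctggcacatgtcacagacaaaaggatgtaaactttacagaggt
Cnr2 proximal, chr4:135911430-135911729, plus strand: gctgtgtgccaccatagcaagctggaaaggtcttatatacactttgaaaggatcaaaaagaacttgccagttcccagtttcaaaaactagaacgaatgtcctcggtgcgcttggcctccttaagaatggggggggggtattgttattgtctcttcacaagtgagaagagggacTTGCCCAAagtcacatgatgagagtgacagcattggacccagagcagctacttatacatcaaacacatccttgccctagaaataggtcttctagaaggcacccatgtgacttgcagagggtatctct
The capitals mark GC boxes (GGGCGG or its complement CCGCCC) in Zfyve28, Rab3il1 and Slc7a15, E-boxes (CACGTG) in Rab3il1, a TATA box (TATAAA, here on the complementary strand) in Slc7a15, and a C/EBP match (TTGCNNAA) in the proximal Cnr2 window.

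The windows differ widely in base composition. The Zfyve28 window holds 48 CpG pairs and is 77% G or C, and that of Nol4l holds 44 CpG pairs and is 81% G or C, whereas the median over 32851 promoters is 7 CpG pairs and 52.7% G or C. Each Cnr2 window holds 3 CpG pairs, fewer than that median. Counting 1 window per gene, 5 of 8 held a GC box (Zfyve28, Rab3il1, Slc7a15, Ap1b1 and Nol4l), against 35.7% of all promoters. A match to CACGTG was found in 1 of 8 against 7.15% of all promoters, and a match to TATAAA in 1 of 8 against 13.6%. The letters searched for PU.1 (GAGGAAGT), C/EBP (TTGCNNAA), AP-1 (TGANTCA), NF-kB (by its kappaB motif) and the ISRE were in 0 of these 8 windows and in 3.20%, 10.8%, 7.81%, 4.51% and 3.44% of all promoters. Both strands were searched, and no match says only that these letters are not in the window. The most counted Ap1b1 coding transcript, Ap1b1-202 (10 counts with LPS+HACA and 21 in control), starts 22706 bases from the start site of the listed window. Ap1b1-201 (8 and 7 counts) begins at that site. The countable bases of both lie away from their starts, so the counts do not show which start was used.

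Cnr2 encodes the cannabinoid receptor CB2, a G protein-coupled receptor of immune cells that binds endocannabinoids. It lies on chr4:135895394-135920207 on the plus strand (GRCm38, as are all coordinates here). Cnr2 had 3.40 and 2.70 CPM with LPS+HACA, 0.197 and 0 CPM with LPS, and 7.15 and 3.97 CPM in control. The LPS+HACA libraries came close to the lower control library without overlapping it, and the LPS libraries held 2 counts in all, both in replicate 1. The LPS+HACA level was 54.8% of control (exact 95% interval 42.3 to 70.7%) and the LPS level 1.74% (0.209 to 6.38%). The intervals here and below cover counting error only, and replicate libraries differed by more than that over all genes. Within replicate numbers, the LPS+HACA level was 47.6% of control for replicate 1 and 68.2% for replicate 2.

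Cnr2 has 2 annotated transcripts that share the coding exon and differ in their first exons, so its counts come from the starts alone. The transcript with the distal start, Cnr2-202, held 92 of 96 counts with LPS+HACA, 0 of 2 with LPS and 164 of 174 in control. Cnr2-201, with the proximal start, held the other 4, 2 and 10 counts. The distal start was thus the counted one in both groups with appreciable counts, and 2 counts in LPS are too few to give a share. Cnr2 is known from B cells as well as macrophages, and the 11 B cell markers summed to 29.7 and 18.2 CPM with LPS+HACA, 13.4 and 12.8 with LPS, and 25.7 and 38.5 in control. Most of that sum came from Blnk, a signalling linker that macrophages also express, and from Ighm, the only B cell marker called in any comparison (log2 fold change −1.95 in LPS vs control, adjusted p = 0.00615, and 1.77 in LPS+HACA vs LPS, adjusted p = 0.0208). Ighm had 12.1 and 6.76 CPM with LPS+HACA, 2.86 and 2.70 with LPS, and 10.2 and 11.3 in control. Cd79a had 24 and 22 counts with LPS+HACA, 3 and 11 with LPS, and 28 and 34 in control, and did not pass in any comparison (−1.55 in LPS vs control, adjusted p = 0.0928). Cd79b and Pax5 were at 0 counts throughout, and Ms4a1 and Cd22 had at most 1 count in any library. The part of B cell genes in the Cnr2 values was not tested.

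Slc7a15 encodes an amino acid transporter of the SLC7 family, described in mouse as preferring aromatic amino acids. It lies on chr12:8528483-8599066 on the minus strand. Slc7a15 had 1.88 and 1.62 CPM with LPS+HACA, 0 and 0.193 CPM with LPS, and 8.03 and 9.46 CPM in control. Both LPS+HACA libraries lay far below both control libraries, and the LPS libraries held 2 counts, both in replicate 2. With LPS+HACA the level was 20.2% of control (14.8 to 27.0%), the lowest of the 9 genes, and with LPS 1.12% (0.135 to 4.07%). The coding transcript Slc7a15-201 held 25 and 21 counts with LPS+HACA, 0 and 2 with LPS, and 97 and 97 in control. The non-coding Slc7a15-203 held 6 and 3, 0 and 0, and 31 and 46 counts in that order of groups. Relative to control, the LPS+HACA level was 23.6% (16.7 to 32.6%) for the coding and 11.6% (5.12 to 23.2%) for the non-coding transcript, and these intervals overlap.

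Zfyve28 encodes a FYVE-domain protein that binds the phosphoinositide PI3P on endosomes and, in human cells, restrains signalling of the EGF receptor. It lies on chr5:34194893-34288449 on the minus strand and had by far the most counts of the 9 genes. Zfyve28 had 46.8 and 40.4 CPM with LPS+HACA, 2.36 and 1.64 CPM with LPS, and 95 and 117 CPM in control. The groups lay far apart relative to the spread within each. The log2 fold change was −5.72 ± 0.31 in LPS vs control, 4.44 ± 0.30 in LPS+HACA vs LPS and −1.28 ± 0.25 in LPS+HACA vs control (SE from a fit over 6 libraries). Levels with LPS+HACA averaged 41.3% of control (38.8 to 44.0%) and those with LPS 1.89% (1.35 to 2.56%). Within replicate numbers, LPS+HACA was at 49.2% of control for replicate 1 and 34.5% for replicate 2, a wider range than the counting interval.

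The Zfyve28 transcripts were low together in LPS. The 2 coding transcripts held 584 and 408 counts with LPS+HACA, 14 and 12 with LPS, and 1103 and 1370 in control. The 4 non-coding transcripts, whose countable bases lie almost all in introns, held 186 and 190, 10 and 5, and 412 and 403 counts in that order of groups. The LPS+HACA level relative to control was 39.9% (37.0 to 42.9%) over the coding and 45.8% (40.5 to 51.9%) over the non-coding transcripts. Non-coding transcripts made up 27.5% of the gene's counts with LPS+HACA (25.1 to 29.9%) and 24.8% in control (23.3 to 26.3%). Zfyve28 shares 102 exonic bases with the annotated gene Gm42848. Stretches of up to 148 bases in 3 of its transcripts match 5 genes other than Zfyve28 at 95% identity or more, and Gm42848 may be among them. A small part of the Zfyve28 counts is therefore uncertain.

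Rab3il1 encodes a guanine nucleotide exchange factor that activates Rab GTPases of the exocytic pathway, Rab8 in human cells among them. It lies on chr19:10001669-10038380 on the plus strand. Rab3il1 had 3.89 and 4.6 CPM with LPS+HACA, 0.197 and 0.385 CPM with LPS, and 18.2 and 21.1 CPM in control. The LPS+HACA libraries stood clearly apart from both other groups. The log2 fold change was −6.03 ± 0.42 in LPS vs control, 3.82 ± 0.42 in LPS+HACA vs LPS and −2.21 ± 0.31 in LPS+HACA vs control. The LPS+HACA level was 21.5% of control (17.7 to 26%) and the LPS level 1.49% (0.545 to 3.26%).

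All Rab3il1 counts came from 2 of its 8 transcripts. Rab3il1-204, annotated as a retained intron, held 43 and 28 counts with LPS+HACA, 1 and 2 with LPS, and 189 and 214 in control. The short coding transcript Rab3il1-205 held 21 and 40, 1 and 2, and 101 and 105 counts in that order of groups. Rab3il1-201 had 0 counts in every library although 2472 of its bases are countable, as did Rab3il1-203 with 755. The retained intron made up 53.8% of the gene's counts with LPS+HACA (44.9 to 62.5%) and 66.2% in control (62.3 to 69.9%), and the 2 LPS+HACA libraries were on opposite sides, with 43 against 21 counts in replicate 1 and 28 against 40 in replicate 2. The LPS+HACA level relative to control was 29.4% (21.7 to 39.3%) over the coding and 17.5% (13.4 to 22.6%) over the non-coding transcript, intervals that just overlap.

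Ap1b1 encodes the beta subunit of the clathrin adaptor complex AP-1, which sorts cargo between the trans-Golgi network and endosomes. It lies on chr11:4986824-5042791 on the plus strand. Ap1b1 had 2.61 and 2.16 CPM with LPS+HACA, 0.197 and 0 CPM with LPS, and 7.65 and 9.0 CPM in control. The groups did not overlap, and the LPS libraries held 2 counts, both in replicate 1. With LPS+HACA the level was 28.9% of control (22 to 37.5%) and with LPS 1.17% (0.141 to 4.28%). Non-coding transcripts held 86.3% of all Ap1b1 counts, with 30 and 27 with LPS+HACA, 2 and 0 with LPS, and 109 and 121 in control. Those of the coding transcripts were 13 and 5, 0 and 0, and 13 and 15, over only 164 countable bases. The level over the coding transcripts was 63.9% of control with LPS+HACA, with an interval of 33.3 to 120% that does not exclude the control level, against 24.6% (18.1 to 33.0%) over the non-coding ones. The Ap1b1 values therefore describe mostly intronic sequence, and the messenger RNA was hardly measured.

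Edaradd encodes a death-domain adaptor that links the ectodysplasin receptor to NF-kB in developing hair, teeth and glands. It lies on chr13:12472632-12520438 on the minus strand, and with 1 transcript it was the only one of the 9 genes counted over its whole length. Edaradd had 7.65 and 7.37 CPM with LPS+HACA, 1.08 and 0.578 CPM with LPS, and 17.7 and 25.9 CPM in control. The LPS+HACA libraries were nearly equal and the control libraries were not. The log2 fold change was −4.70 ± 0.41 in LPS vs control, 3.17 ± 0.40 in LPS+HACA vs LPS and −1.54 ± 0.33 in LPS+HACA vs control. Levels with LPS+HACA averaged 34.6% of control (29.7 to 40.3%) and those with LPS 3.82% (2.21 to 6.16%). Within replicate numbers, LPS+HACA was at 43.3% of control for replicate 1 and 28.4% for replicate 2.

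Zfp395 encodes a zinc finger protein whose human orthologue is a DNA-binding transcription factor. It lies on chr14:65358389-65398930 on the plus strand. Zfp395 had 19.1 and 11.9 CPM with LPS+HACA, 1.58 and 0.867 CPM with LPS, and 49.1 and 40.4 CPM in control. Replicate 1 was higher than replicate 2 in each group, and the groups did not overlap. The log2 fold change was −5.19 ± 0.42 in LPS vs control, 3.66 ± 0.40 in LPS+HACA vs LPS and −1.53 ± 0.33 in LPS+HACA vs control. The LPS+HACA level was 35% of control (31.5 to 38.8%) and the LPS level 2.71% (1.75 to 4.02%). Non-coding transcripts held only 2.88% of Zfp395 counts, so its values are those of the coding transcripts, mainly Zfp395-201 with 465 counts with LPS+HACA, 25 with LPS and 1315 in control.

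Fam117a lies on chr11:95337018-95381872 on the plus strand and Nol4l on chr2:153407462-153529971 on the minus strand. Fam117a had 2.37 and 1.28 CPM with LPS+HACA, 0.0985 and 0.0963 CPM with LPS, and 6.59 and 4.50 CPM in control. It was among the genes with the fewest counts, with 39 and 19, 1 and 1, and 105 and 68 counts in the same order of groups. With LPS+HACA the level was 33.3% of control (24.3 to 45.1%) and with LPS 1.75% (0.210 to 6.41%). Its coding transcript held 87.9% of the counts in control and 89.7% with LPS+HACA. Fam117a shares 267 exonic bases with Gm11521 and Gm29477. A stretch of up to 239 bases matches 2 genes other than Fam117a at 95% identity or more, and these may be the same 2 genes.

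Nol4l had 11.2 and 9.87 CPM with LPS+HACA, 1.28 and 1.06 CPM with LPS, and 17.1 and 16.3 CPM in control. Replicates were close in each group, and Nol4l had the highest share of its control level in both treated groups. The log2 fold change was −3.82 ± 0.31 in LPS vs control, 3.16 ± 0.31 in LPS+HACA vs LPS and −0.66 ± 0.26 in LPS+HACA vs control. Levels with LPS+HACA averaged 63.5% of control (55.1 to 73.0%) and those with LPS 7.01% (4.45 to 10.5%), and the interval with LPS+HACA overlapped that of Cnr2. The coding transcripts held 80 and 66 counts with LPS+HACA, 6 and 9 with LPS, and 132 and 158 in control. The non-coding transcripts, whose 2387 countable bases all lie in introns of the coding ones, held 105 and 80, 7 and 2, and 140 and 88 counts in that order of groups. The LPS+HACA level was 50.03% of control (40.7 to 61.2%) over the coding and 80.6% (66.1 to 98.3%) over the non-coding transcripts, and these intervals did not overlap. The control libraries differed more over the non-coding transcripts than over the coding ones, and a stretch of up to 170 bases in Nol4l-205 matches 165 other genes at 95% identity or more, so part of the non-coding counts is uncertain.

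**Figure D3:**
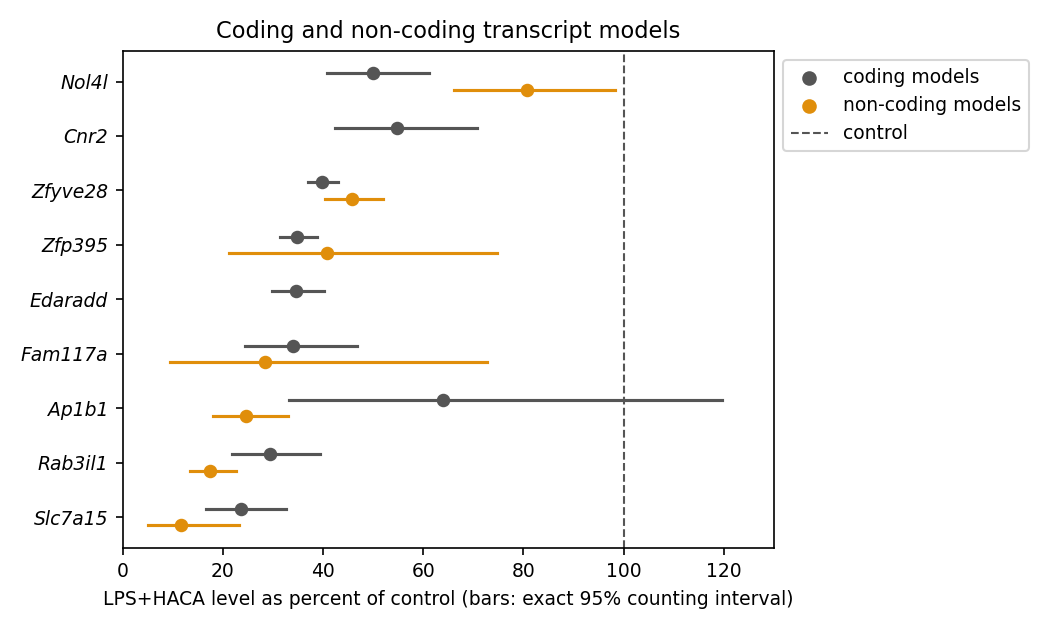
LPS+HACA level as a percent of control, with exact 95% counting intervals, over coding (grey) and non-coding (orange) transcripts of each gene, on an x axis from 0 with control at the dashed line. The intervals of the 2 classes did not overlap for Nol4l (50.03% and 80.6%), and the coding interval of Ap1b1 reached 120%.

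Per countable kilobase, the mean control level ran from Zfyve28 (24.2 CPM per countable kb) and Cnr2 (16.3) through Zfp395 (12.3), Ap1b1 (8.20), Slc7a15 (5.74), Nol4l (5.48), Rab3il1 (4.68) and Edaradd (3.27) to Fam117a (2.65). The control libraries of Cnr2 and Zfp395, of Slc7a15 and Nol4l, and of Edaradd and Fam117a overlapped, so these neighbours cannot be ordered. With LPS+HACA the same measure ran from Zfyve28 (9.93) and Cnr2 (8.95), whose libraries overlapped, to Rab3il1 (1.0) and Fam117a (0.872), which also overlapped. In LPS every gene overlapped its neighbour in the order, with means between 0.0465 and 0.456 CPM per countable kb. The level per kilobase of Cnr2 and Ap1b1 rests on few bases and is uncertain. That of Rab3il1 is uncertain too, because it is divided by 4196 countable bases. Its counts came only from 2 transcripts with 683 and 96 unshared bases, so transcripts with 0 counts lower its place in the order.

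The order of the LPS+HACA level as a share of control was Nol4l, Cnr2, Zfyve28, Zfp395, Edaradd, Fam117a, Ap1b1, Rab3il1 and Slc7a15. The counting interval of each gene overlapped that of its neighbour in this order, which does not show that neighbours are equal. Intervals of some genes further apart did not overlap, such as those of Nol4l (55.1 to 73.0%) and Zfyve28 (38.8 to 44.0%), or of Zfyve28 and Rab3il1 (17.7 to 26%). Over coding transcripts alone, both pairs overlapped, with Nol4l at 40.7 to 61.2%, Zfyve28 at 37.0 to 42.9% and Rab3il1 at 21.7 to 39.3%. Nol4l (50.03%) then also lay below Cnr2 (54.8%), so this order depends partly on non-coding transcripts. Between replicate numbers 1 and 2, LPS+HACA replicate 1 had the higher CPM for 8 of the 9 genes, LPS replicate 1 for 7 and control replicate 1 for 4. The same share over all genes tested was not computed, so nothing about the 9 genes is read from these counts. Differences between replicates 1 and 2 correlated between groups over 8700 genes (r between 0.462 and 0.76). The cell cycle and stromal sums were higher in replicate 1 of each group, and their part in the values of the 9 genes was not tested.

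**Figure D4:**
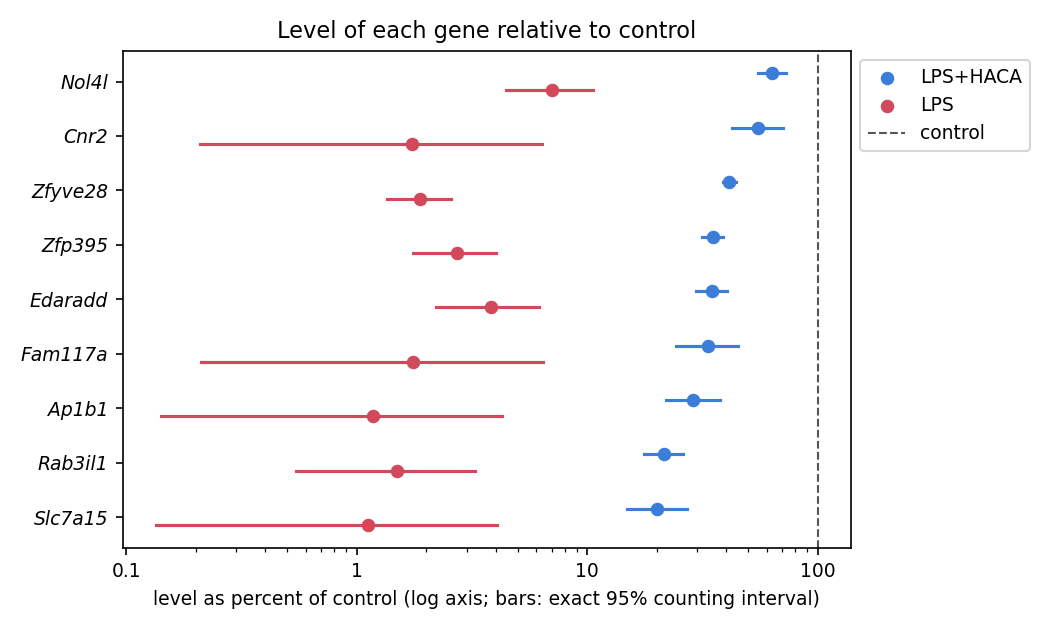
Level from summed counts as a percent of control on a log axis for LPS+HACA (blue) and LPS (red), with exact 95% counting intervals and control at the dashed line. LPS+HACA lies between 20.2% and 63.5% and LPS between 1.12% and 7.01%, and the wide LPS intervals belong to genes with few counts.

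Many other genes had the same shape. Of all 17113 genes tested, 964 (5.63%) were called lower in LPS vs control and higher in LPS+HACA vs LPS, at an adjusted p under 0.05 in both. That count was 152 and 290 without LPS+HACA replicate 1 and 2, 1536 and 770 without LPS replicate 1 and 2, and 333 and 303 without control replicate 1 and 2. At least as low in LPS as Nol4l (log2 fold change −3.82, the mildest of the 9) and at least as high with HACA (3.16) were 223 genes beyond the 9, of which 31 had a control mean of 5 CPM or more. Those 31 became 97 without LPS replicate 1 and 66 without LPS replicate 2. The 6 genes nearest to the median profile of the 9 were Fam78a, Rcbtb2, Tmem86a, Gm1972, Lpin1 and Gm16531, by Euclidean distance over the 6 libraries on log2(CPM + 0.5) relative to control, among genes with a control mean of at least 5 CPM. Their distances were 0.364, 0.383, 0.551, 0.555, 0.675 and 0.677, inside the range of the 9 genes themselves (0.330 for Ap1b1 to 2.09 for Zfyve28). Fam78a had 17.1 and 9.13 CPM with LPS+HACA, 1.87 and 1.54 with LPS, and 32.9 and 32.0 in control. Rcbtb2 had 13.4 and 11.2, 2.07 and 1.35, and 38.2 and 33.2 CPM in that order of groups. Tmem86a, which encodes a lysoplasmalogenase, had 51.8 and 59.2 CPM with LPS+HACA, 10.4 and 9.44 with LPS, and 135 and 174 in control. Lpin1, a phosphatidate phosphatase gene, had 2.79 and 2.57, 0.493 and 0.193, and 9.35 and 12.2 CPM in that order. These genes were chosen by likeness, so no test is given for them.

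Genes of the same family as the 9 were compared next, with calls from edgeR's quasi-likelihood test over all genes (Benjamini-Hochberg adjusted p under 0.05). Of 9 listed partners, 5 were measured, and the backgrounds over all genes tested were 15.9% higher and 14.3% lower in LPS vs control, and 5.74% higher and 7.67% lower in LPS+HACA vs LPS. Zfp704, a paralogue of Zfp395, fell in LPS vs control (−2.24 ± 0.22, adjusted p = 0.000476) and was higher in LPS+HACA vs LPS (1.80 ± 0.22, adjusted p = 0.00502). It had 92.2 and 111 CPM with LPS+HACA, 29.3 and 29.0 with LPS, and 129 and 147 in control, so the groups did not overlap. Fam117b, the paralogue of Fam117a, had 80.3 and 69.6, 42.7 and 42.9, and 116 and 103 CPM in that order of groups. It fell in LPS vs control (−1.35 ± 0.21, adjusted p = 0.00293), while its call in LPS+HACA vs LPS (0.81 ± 0.21, adjusted p = 0.0418) did not hold without any 1 of the 6 libraries (adjusted p 0.0506 to 0.215). Zfyve1, Ap2b1 and Rab3ip did not pass in either comparison, with log2 fold changes of −0.39, 0.86 and 1.58 in LPS vs control (adjusted p = 0.308, 0.0558 and 0.0716) and 0.37, −0.94 and −0.14 in LPS+HACA vs LPS (adjusted p = 0.382, 0.0681 and 0.887). Ap2b1 passed in both comparisons without LPS replicate 1 (adjusted p = 0.0168 and 0.0217), without the filter on low counts and in DESeq2. Rab3ip passed in LPS vs control without LPS replicate 1 (adjusted p = 0.0487) and without the filter, and Zfyve1 passed in both comparisons under library-total scaling (adjusted p = 0.0141 and 0.0252). With a term for the replicate number added to the edgeR fit, Ap2b1 passed in both comparisons (adjusted p = 0.0184 and 0.0201). Rab3ip passed in LPS vs control under that fit (adjusted p = 0.0305). Cnr1, the other cannabinoid receptor gene, and Slc7a9 had 0 counts in every library. The partner list had a median log2 fold change of −0.39 in LPS vs control and 0.37 in LPS+HACA vs LPS, beside −0.05 and 0.06 over all genes tested.

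The endocannabinoid list holds other receptors and the enzymes that make or break down cannabinoid lipids, and 8 of its 15 genes were measured. In LPS vs control 2 rose and 3 fell (median −0.68), and in LPS+HACA vs LPS 1 rose and 1 fell (median 0.03). Library-total scaling gave 2 higher and 5 lower, and 3 higher and 1 lower, and with 1 library left out the second comparison ran from 0 to 2 higher and 0 to 1 lower. Gpr55, a receptor for lysophosphatidylinositol, rose in LPS vs control (3.18 ± 0.50, adjusted p = 0.00304), with 4.25 and 8.72 CPM with LPS+HACA, 11.3 and 16.4 with LPS, and 1.0 and 2.05 in control. Gpr18 rose too (2.65 ± 0.34, adjusted p = 0.00133) and fell in LPS+HACA vs LPS (−1.70 ± 0.33, adjusted p = 0.0175), a call lost without either LPS+HACA library (adjusted p = 0.117 and 0.0673). Both receptors thus went the other way from Cnr2 in LPS. Daglb, an enzyme that makes 2-arachidonoylglycerol, had 61.0 and 48.0 CPM with LPS+HACA, 26 and 21.3 with LPS, and 110 and 98.7 in control. It fell in LPS vs control (−2.14 ± 0.24, adjusted p = 0.000796), and its rise in LPS+HACA vs LPS (1.20 ± 0.24, adjusted p = 0.0180) was lost without either control or either LPS+HACA library (adjusted p 0.0524 to 0.117). Abhd12, a hydrolase of this lipid, fell in LPS vs control (−2.25 ± 0.38, adjusted p = 0.00422) and did not pass in LPS+HACA vs LPS (0.90 ± 0.38, adjusted p = 0.152).

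Of 16 SLC7 family genes and their partner subunits other than Slc7a15, 9 were measured, and in LPS vs control 6 rose and 0 fell (median 2.04). In LPS+HACA vs LPS 0 rose and 4 fell (median −1.48), and in LPS+HACA vs control 2 rose, against 0.894% higher over all genes tested. With 1 library left out, 2 to 7 were higher and 0 lower in LPS vs control, 0 higher and 0 to 6 lower in LPS+HACA vs LPS, and 0 to 2 higher in LPS+HACA vs control. Slc7a5, the light chain of a large neutral amino acid transporter, had 92.2 and 144 CPM with LPS+HACA, 258 and 621 with LPS, and 8.59 and 7.61 in control (5.76 ± 0.50 in LPS vs control, adjusted p = 0.000324). The cationic transporter gene Slc7a1 had 168 and 323, 653 and 1291, and 23.5 and 35.9 CPM in that order of groups (5.03 ± 0.50, adjusted p = 0.000649). Slc7a11, the cystine transporter gene, had the largest fitted change of the 3 (6.11 ± 1.25, adjusted p = 0.0295), a call that did not hold without any 1 of the control and LPS libraries (adjusted p 0.0768 to 0.156). In LPS+HACA vs LPS, Slc7a5 (−1.90 ± 0.42, adjusted p = 0.0262) was lost without either control or either LPS+HACA library (adjusted p 0.0574 to 0.143). Slc7a1 (−1.98 ± 0.44, adjusted p = 0.0285) was lost without control replicate 2, LPS replicate 2 or LPS+HACA replicate 1 (adjusted p 0.0502 to 0.126). In LPS+HACA vs control, Slc7a5 (3.86, adjusted p = 0.0147) and Slc7a1 (3.05, adjusted p = 0.0311) rose, and both calls were lost without either control library, Slc7a1 also without LPS+HACA replicate 2 (adjusted p 0.0765 to 0.290). The measured family members that passed in LPS moved in the opposite direction to Slc7a15.

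**Figure D5:**
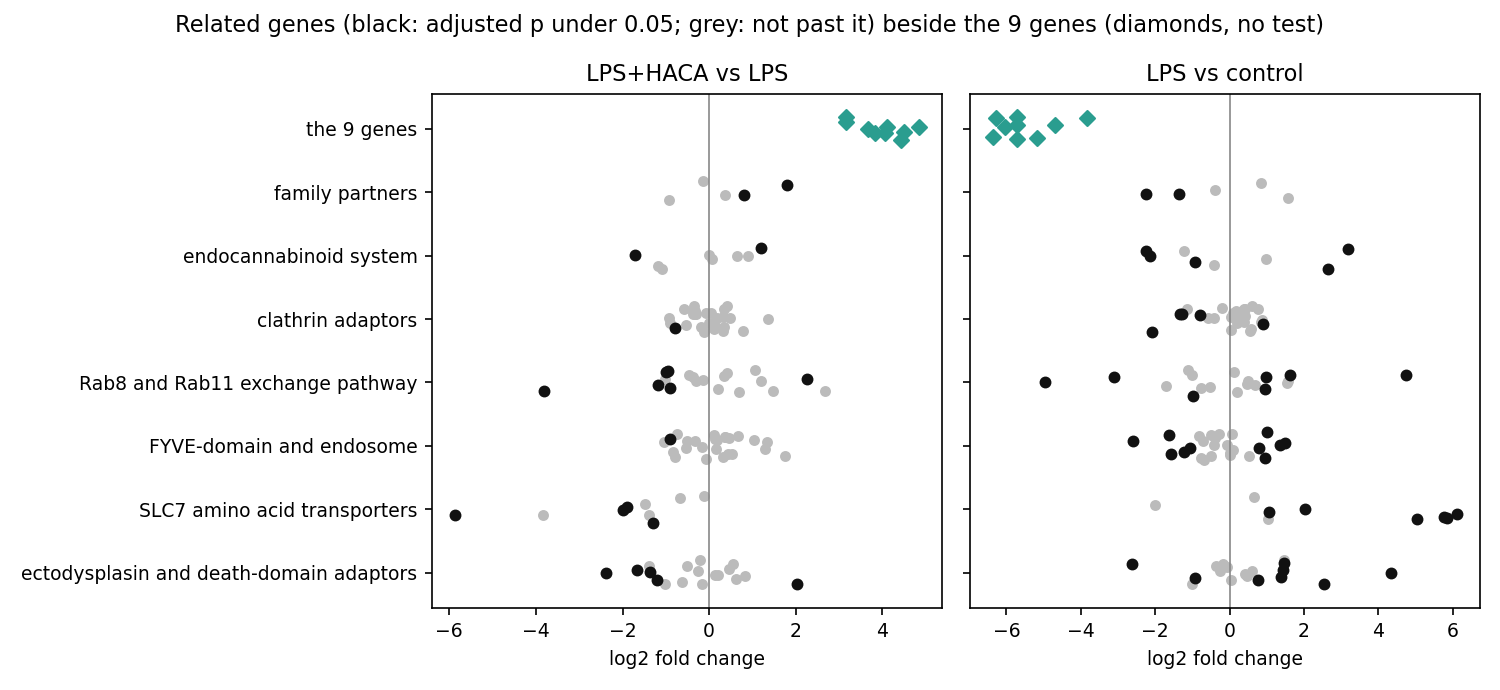
Log2 fold changes of the listed relatives in LPS+HACA vs LPS (left) and LPS vs control (right), in black where the adjusted p was under 0.05 and grey where it was not, with the 9 genes as diamonds that carry no test. The 9 genes lie at or beyond the −3.82 of Nol4l in LPS vs control, while the SLC7 list has 6 genes called higher and 0 called lower there.

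Among clathrin adaptor genes, 27 of 29 were measured, and 1 rose and 4 fell in LPS vs control (median 0.17) while 0 rose and 1 fell in LPS+HACA vs LPS (median −0.07). With any 1 library left out, these counts ran from 0 to 3 higher and 1 to 5 lower, and from 0 to 1 higher and 0 to 3 lower. Library-total scaling gave 0 higher and 6 lower, and 3 higher and 0 lower. Ap2a2, a subunit of the plasma membrane adaptor AP-2, had 278 and 247 CPM with LPS+HACA, 214 and 180 with LPS, and 505 and 485 in control (−1.33 ± 0.20 in LPS vs control, adjusted p = 0.00259). Gga2, a Golgi-localised adaptor gene, fell (−2.09 ± 0.52, adjusted p = 0.0187), a call lost without either control library (adjusted p = 0.0781 and 0.0895). Ap3b1, the beta subunit of the lysosomal adaptor AP-3, was higher in LPS vs control (0.90 ± 0.19, adjusted p = 0.0106) and lower in LPS+HACA vs LPS (−0.78 ± 0.19, adjusted p = 0.0357). Both Ap3b1 calls were lost under library-total scaling (adjusted p = 0.318 and 0.632) and without either control library (adjusted p 0.0960 to 0.101), and the second also without LPS replicate 2 or either LPS+HACA library (adjusted p 0.0648 to 0.206).

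For the Rab8 and Rab11 exchange pathway, into which Rab3il1 falls, 19 of 22 genes were measured, and 4 rose and 3 fell in LPS vs control (median 0.21) while 1 rose and 5 fell in LPS+HACA vs LPS (median −0.14). Leaving out 1 library gave 2 to 6 higher and 2 lower, and 1 to 2 higher and 1 to 5 lower. Library-total scaling turned the balance to 2 higher and 7 lower, and 6 higher and 1 lower. Rab11fip5, an effector of Rab11 on recycling endosomes, had 24.1 and 18.5 CPM with LPS+HACA, 3.64 and 5.20 with LPS, and 34.4 and 41.5 in control. It fell in LPS vs control (−3.10 ± 0.31, adjusted p = 0.000472) and rose in LPS+HACA vs LPS (2.27 ± 0.30, adjusted p = 0.00569). The related Rab11fip1 went the other way, with 30.1 and 39.2, 266 and 713, and 17.2 and 19.2 CPM in that order of groups (4.75 ± 0.49 in LPS vs control, adjusted p = 0.000612, and −3.82 ± 0.46 in LPS+HACA vs LPS, adjusted p = 0.00550). Rab10, a GTPase of exocytic traffic, rose in LPS vs control (1.63 ± 0.22, adjusted p = 0.00157), and its fall in LPS+HACA vs LPS (−1.19 ± 0.22, adjusted p = 0.0147) was lost under library-total scaling (adjusted p = 0.101) and without either LPS+HACA library (adjusted p = 0.126 and 0.0586). Rab3gap2, a subunit of a Rab3 GTPase-activating complex, fell in LPS vs control (−0.97 ± 0.29, adjusted p = 0.0372), a call lost without any 1 of the 6 libraries (adjusted p 0.0571 to 0.276).

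Of 27 FYVE-domain and endosome genes 25 were measured, and 5 rose and 5 fell in LPS vs control (median −0.39) while 0 rose and 1 fell in LPS+HACA vs LPS (median 0.15). Leaving out 1 library gave 1 to 4 higher and 1 to 6 lower, and 0 to 2 higher and 0 to 2 lower. Library-total scaling gave 1 higher and 9 lower, and 7 higher and 0 lower. Plekhf2, an endosomal FYVE protein gene, had 95.2 and 93.8 CPM with LPS+HACA, 175 and 179 with LPS, and 69.0 and 70.0 in control (1.35 ± 0.20 in LPS vs control, adjusted p = 0.00213). Its fall in LPS+HACA vs LPS (−0.90 ± 0.19, adjusted p = 0.0235) was lost under library-total scaling (adjusted p = 0.377) and without either control or either LPS+HACA library (adjusted p 0.0747 to 0.158). Eea1, an early endosome tether, rose in LPS vs control (1.49 ± 0.29, adjusted p = 0.00769), lost under library-total scaling and without control replicate 1 (adjusted p = 0.0605 and 0.0815). Plekhf1 (−2.6 ± 0.78, adjusted p = 0.0394) fell, a call lost without control replicate 1 or either LPS library (adjusted p 0.212 to 0.231), and so did Fgd2 (−1.63 ± 0.47, adjusted p = 0.0345), a call lost without either control library or LPS replicate 2 (adjusted p 0.0588 to 0.137).

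Around Edaradd, 18 of 21 ectodysplasin and death-domain adaptor genes were measured, and 6 rose and 2 fell in LPS vs control (median 0.44) while 1 rose and 4 fell in LPS+HACA vs LPS (median −0.23). Leaving out 1 library gave 3 to 7 higher and 1 to 3 lower, and 1 to 3 higher and 0 to 4 lower. Library-total scaling gave 4 higher and 5 lower, and 3 higher and 1 lower. Edar, the receptor to which Edaradd binds, had 0 counts in every library, and its ligand gene Eda was not tested. Traf1, an adaptor induced by NF-kB, had 81.4 and 119 CPM with LPS+HACA, 339 and 699 with LPS, and 23.0 and 28.1 in control (4.34 ± 0.41 in LPS vs control, adjusted p = 0.000370). Traf1 fell in LPS+HACA vs LPS (−2.37 ± 0.37, adjusted p = 0.00919), lost without LPS+HACA replicate 1 (adjusted p = 0.0632). Myd88, the adaptor of TLR4, rose in LPS vs control (2.55 ± 0.43, adjusted p = 0.00414), and its fall in LPS+HACA vs LPS (−1.66 ± 0.41, adjusted p = 0.0373) was lost under library-total scaling and without LPS replicate 2 or either LPS+HACA library (adjusted p 0.0940 to 0.186). Tab1, whose protein activates the kinase TAK1, was low in LPS like Edaradd, with 30.2 and 29.6 CPM with LPS+HACA, 9.16 and 5.59 with LPS, and 45.0 and 46.4 in control (−2.63 ± 0.29, adjusted p = 0.000752, and 2.02 ± 0.29, adjusted p = 0.00715). Fadd, a death receptor adaptor, fell in LPS vs control (−0.93 ± 0.25, adjusted p = 0.0246), a call lost without either control library or LPS replicate 2 (adjusted p 0.0608 to 0.157).

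Taking all 108 distinct relatives measured, 24 rose and 19 fell in LPS vs control, 5 rose and 16 fell in LPS+HACA vs LPS, and 2 rose and 0 fell in LPS+HACA vs control. Without control replicate 1 or control replicate 2 the counts in LPS vs control were 11 higher and 10 lower. In LPS+HACA vs LPS they were 3 higher and 9 lower without control replicate 1, 3 and 8 without control replicate 2, 10 and 21 without LPS replicate 1, 6 and 10 without LPS replicate 2, 3 and 1 without LPS+HACA replicate 1, and 3 and 4 without LPS+HACA replicate 2. Scaling by library totals, which moved the median of all genes to −0.69 in LPS vs control and 0.70 in LPS+HACA vs LPS, gave 14 higher and 35 lower in LPS vs control and 24 higher and 6 lower in LPS+HACA vs LPS. Under it the medians of the clathrin, Rab and ectodysplasin lists changed sign in both comparisons. The SLC7 list had 5 higher and 1 lower in LPS vs control and 0 higher and 3 lower in LPS+HACA vs LPS under it.

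The nearest tested protein-coding gene on each side of the 9 genes, by gene midpoint, was examined to see whether neighbouring genes shared their pattern. Some lie far away, such as those of Zfp395 at 319 and 132 kb. Of 18 neighbours, 2 were higher and 3 lower in LPS vs control (median −0.32), and 2 were higher and 1 lower in LPS+HACA vs LPS (median 0.16). Without a control library, these counts in LPS vs control were 0 higher and 1 lower. Mxd4, a transcriptional repressor of the MYC network that lies 7.17 kb from Zfyve28, had 108 and 75.0 CPM with LPS+HACA, 28.8 and 19.3 with LPS, and 203 and 134 in control. It fell in LPS vs control (−2.81 ± 0.34, adjusted p = 0.000973) and rose in LPS+HACA vs LPS (1.93 ± 0.32, adjusted p = 0.0113), and this second call was lost without LPS+HACA replicate 1 (adjusted p = 0.0598). The gene 4930404H24Rik, which lies in an intron of Nol4l on the opposite strand, had 2.0 and 0.879 CPM with LPS+HACA, 0.197 and 0 with LPS, and 2.07 and 1.85 in control. It fell in LPS vs control (adjusted p = 0.0129, lost without either control library at 0.0561 and 0.0626) and rose in LPS+HACA vs LPS (adjusted p = 0.0398, lost without any 1 library other than LPS replicate 1, at 0.0571 to 0.179). Rhob, a small GTPase gene 28.5 kb from Slc7a15, fell in LPS+HACA vs LPS (−1.91 ± 0.29, adjusted p = 0.00859), a call lost without LPS+HACA replicate 1 (adjusted p = 0.0642). Rnf4 and Best1 were called higher and Ero1lb lower in LPS vs control (adjusted p = 0.0370, 0.0492 and 0.0292), and each of these calls was lost without either control library or LPS replicate 2, at adjusted p between 0.0816 and 0.251. The calls of Rnf4 and Ero1lb were also lost without either LPS+HACA library (adjusted p 0.0571 to 0.0692), and those of Rnf4 and Best1 under library-total scaling (adjusted p = 0.586 and 0.174). The other neighbours were not called in either comparison.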

How the data were processed

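RNA had been extracted with Trizol, selected with poly-A beads and made into TruSeq libraries, per the labels' protocols. The authors deposited raw counts and FPKM values per annotated transcript. The submitters' processing notes name STAR 2.5.4b, Trim Galore, CASAVA, edgeR 3.28.1, DESeq2 1.26.0, limma, and the builds GRCm38 and GRCh38, with no role or order. No source used here gives the counting tool or strand setting. The deposited FPKM equalled the count divided by transcript length and a library constant, within 0.1% for 99.6% of values with at least 50 counts, and were used only for an alternative.

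Of 142647 transcripts, 141524 matched the GENCODE vM21 annotation and were summed to 55263 genes, and the other 1123 (at most 0.115% of a library's counts) were left out. Genes annotated as misc_RNA held 24.3 to 29.2% of counts. edgeR 4.0.16 in R 4.3.3 was used with TMM scaling, its default expression filter and a robust quasi-likelihood fit with group as the only term (3 residual degrees of freedom), with Benjamini-Hochberg adjustment over 17113 genes and a threshold of 0.05. The steps were tested on simulated data. Percent of control divides the counts summed over a group's libraries by their summed TMM-scaled sizes, relative to the same value in control. It is given with exact (Clopper-Pearson) 95% counting intervals.

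The 9 genes and all lists were chosen with earlier results of these data known, and neighbours were taken by position after the tables were seen. Named genes were, from each list, up to 2 higher and 2 lower by fold change in LPS vs control and in LPS+HACA vs LPS among called genes with at least 5 CPM, plus all family partners, the 6 nearest profiles and LPS marker genes. Comparisons share their LPS or control libraries and are not independent. Leaving out each library, other scalings, DESeq2 1.42.0, no filter, FPKM and a replicate block were tried.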

Additional observations from a re-analysis of the deposited data

How the results depend on the processing

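No fold change of the 9 genes changed sign under the alternatives run, while the medians of 3 relatives lists (clathrin, Rab and ectodysplasin) did under library totals, as did the balance of higher and lower genes in LPS+HACA vs LPS. Member folds lay between −9.99 and −3.69 in LPS vs control, 2.64 and 8.48 in LPS+HACA vs LPS, and −2.53 and −0.39 in LPS+HACA vs control, and 276 moved by less than 1 SD between replicates while 48 moved further. Of the recomputed folds of named genes and neighbours, 1591 kept their status (called or not called), 111 lost a call and 108 gained one. Of the list counts, 332 were within 1.5 times and 141 were not.

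Scaling by library totals gave 1417 genes higher and 5111 lower in LPS vs control, 3501 higher and 522 lower in LPS+HACA vs LPS, 24 lower in LPS+HACA vs control, 3245 lower in LPS and higher with HACA, and member medians of −6.31 and 4.68. Without the filter on low counts, 1845 genes were higher in LPS+HACA vs LPS, 661 higher and 250 lower in LPS+HACA vs control, and 1715 had both calls. DESeq2 called 455 higher and 180 lower in LPS+HACA vs control. The cause of these differences was not tested.

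The labels do not say that replicate numbers pair the libraries, and the main fit has group as its only term. Same-numbered libraries nevertheless shared part of their differences, from a source that is not labelled. Differences between replicates 1 and 2 correlated between groups over 8700 genes (r = 0.71 for LPS+HACA and LPS, 0.76 for LPS+HACA and control, 0.462 for LPS and control). With a replicate block, 1955 genes were higher and 2356 lower in LPS+HACA vs LPS, 628 higher and 307 lower in LPS+HACA vs control, and 1840 had both calls, while LPS vs control had 3506 and 3384. The block also called 2 of the 5 measured family partners higher in LPS vs control and 1 lower in LPS+HACA vs LPS. It called 1 clathrin adaptor lower in LPS+HACA vs control. Over all 108 relatives it gave 31 higher and 20 lower in LPS vs control. In LPS+HACA vs LPS it gave 10 higher and 28 lower, and in LPS+HACA vs control 6 and 5. Lower calls in LPS+HACA vs LPS went from 1 to 6 for the FYVE list and from 4 to 7 for the SLC7 list.

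Leaving out 1 library leaves a group with a single library that is assumed to vary like the others. It gave 1190 to 3024 genes higher and 916 to 2817 lower in LPS vs control, 152 to 1617 higher and 216 to 1793 lower in LPS+HACA vs LPS, 0 to 420 higher and 0 to 186 lower in LPS+HACA vs control, and 152 to 1536 with both calls. Member medians ran from −5.91 to −5.34, from 3.90 to 4.15 and from −1.89 to −1.22 in the 3 comparisons. With 2 counts in LPS for 4 of the 9 genes, depth limits how far their LPS level can be told from 0.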
